A study of Mus musculus with 6 samples.

Results

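The endothelium of the liver lobule is zoned along the path of the blood, and 8 genes known from its pericentral end were examined: Wnt2, Wnt9b, Rspo3, Kit, Cdh13, Lhx6, Amigo2 and Pcdh17. They were taken by symbol from a deposited table of 39179 genes, which held 1 row for each of them. Gene expression had been measured by RNA sequencing in liver endothelial cells of male wild-type 129S6/SvEvTac mice. All mice went onto a purified diet at 3 weeks of age, stayed on it for 4 weeks and were sampled at 7 weeks. The diet of the control_iron group held 37 ppm iron as ferric citrate, and that of the high_iron group held 10000 ppm carbonyl iron. The 6 libraries are 3 biological replicates of each group, and the sources used here do not say whether a replicate was 1 mouse or a pool. The cells were sorted as CD31+ and CD146+, and as negative for CD45, lineage markers, MHCII and CD64. The gate selects endothelium as a whole and does not separate pericentral from periportal cells.

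Blood enters the lobule beside the portal tract, passes through the sinusoids and leaves by the central vein. Endothelial cells of the central vein and of the adjoining sinusoids secrete Wnt proteins, which bind Frizzled and LRP receptors on neighbouring hepatocytes and stabilise beta-catenin. R-spondin 3, bound by LGR receptors, keeps Frizzled on the hepatocyte surface by holding off the ubiquitin ligases that remove it, and so amplifies the Wnt signal. The outcome is the pericentral hepatocyte programme, with glutamine synthetase as its classical example.

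No member passed the test across all genes, and the members did not share a direction. Amigo2 and Wnt9b were at higher levels in each high_iron library than in any control_iron library, whereas the group means of Rspo3, Cdh13, Kit and Pcdh17 were lower on the high-iron diet. Wnt2 and Lhx6 had nearly equal group means. Expression is stated in CPM, which relates a gene's reads to a scaled library size, or in RPKM, the same quantity per kilobase of gene length. Changes are differences of group means of log2(CPM + 1), high_iron minus control_iron, tested with limma and adjusted by the Benjamini-Hochberg method over 12980 genes. At an adjusted p under 0.05, 0 of 8 members were called, against 1.02% of all genes tested (133 genes, of which 108 were higher and 25 lower). At an unadjusted p under 0.05, 3 of 8 members passed, Amigo2 and Wnt9b with higher and Rspo3 with lower values, against 12.1% of all genes. For 2 of 8 members the CPM ranges of the groups were fully separate, against 17.9% of all genes. DESeq2, run on reads recovered from the table, called 1 of 8 members, Amigo2, against 3.27% of all genes. The quasi-likelihood test of edgeR on the same reads called 0 of 8, against 0.924%. The members' median log2 fold change was -0.05, with 4 above and 4 below 0, beside a median of -0.003 and 49.5% above 0 over all genes tested.

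**Figure D1:**
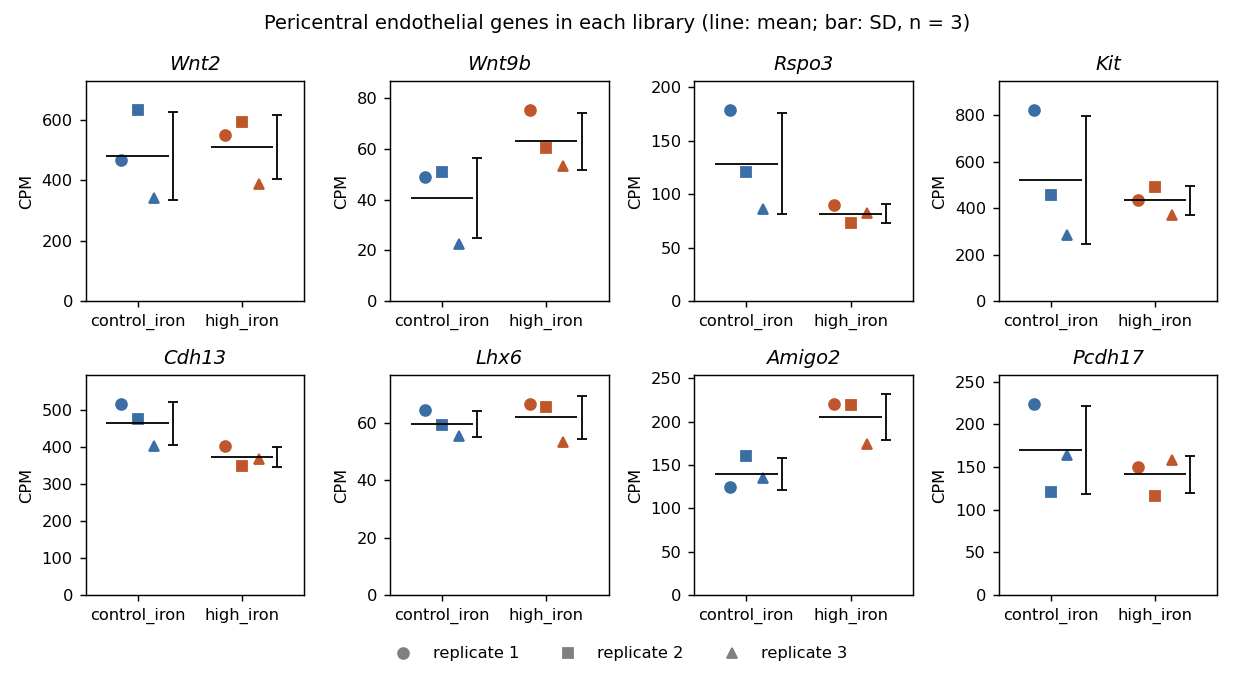
CPM (linear axes from 0) of the 8 genes in the 3 control_iron (blue) and 3 high_iron (orange) libraries, with the marker shape giving the replicate number, the line the group mean and the bar the SD. Only for Wnt9b and Amigo2 do all high_iron points lie above all control_iron points, and control_iron replicate 1 is the highest point for Rspo3, Kit, Cdh13 and Pcdh17.

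Control_iron replicate 1 stood apart in some, not all, genes of large vessels. Vwf, the von Willebrand factor gene, was at 138 CPM there and at 15.0 to 31.7 CPM in the other libraries. Edn1, which encodes endothelin 1, was at 19.1 CPM against 0.924 to 2.85 CPM, and Gja5, an arterial connexin gene, at 8.83 against 0.171 to 1.77 CPM. All 3 were picked once their values had been seen. Of the 12 large-vessel markers, 8 were highest in that library, in part by a small margin, while Ackr1, Bgn, Cd34 and Emcn were highest in others. Of these 12 markers, 10 were tested, and 1 was called by limma, 1 by edgeR and 2 by DESeq2. Of the 10, 4 had an unadjusted p under 0.05 in limma and 4 had groups that did not overlap. A log2 fold change above 0 was found for 1 of the 10, and the median was -0.49. The 12 markers summed to 4205, 3999 and 3395 CPM in control_iron replicates 1 to 3 and to 2559, 2644 and 2796 CPM in high_iron replicates 1 to 3. Every control_iron sum was above every high_iron sum, and that of control_iron replicate 1 was close to that of control_iron replicate 2. Abundant genes weigh most in these sums. Bgn alone was at 903, 1007 and 829 CPM in the control_iron replicates and at 845, 975 and 1136 CPM in the high_iron replicates, beside at most 138 CPM for Vwf. Among them Plvap, which encodes the protein of fenestral diaphragms, fell by 0.96 on the log2 scale (adjusted p = 0.0448 with limma), a call that held without control_iron replicate 3 and was lost without each of the other 5 libraries. The 12 general endothelial markers, all tested, summed to 22320, 20712 and 22344 CPM on the control diet. On the high-iron diet the sums were 19988, 20738 and 19844 CPM. Limma and edgeR called 0 of these 12 markers, with 2 at an unadjusted p under 0.05 in limma. DESeq2 called 1, Lyve1, at 0.64 (adjusted p = 0.0257 with DESeq2). Log2 fold changes were above 0 for 3 of the 12, with a median of -0.19, and the groups did not overlap for 4. Stab1 and Stab2, the most abundant, were at 0.19 and -0.19. Macrophage markers summed to 73.9, 174 and 91.6 CPM on the control diet and to 503, 253 and 351 CPM on the high-iron diet, and of these 12 genes, all tested, 12 had a log2 fold change above 0 and an unadjusted p under 0.05 with limma. Limma called 3 of the 12 (Clec4f, Csf1r and Marco), edgeR 2 and DESeq2 9, and the groups did not overlap for 10. The limma call of Csf1r was lost without high_iron replicate 3, and those of Clec4f and Marco without control_iron replicate 3 or any high_iron replicate. Stellate cell markers summed to 380, 1599 and 830 CPM against 607, 1724 and 1203 CPM, and hepatocyte markers to 209, 843 and 527 CPM against 497, 883 and 694 CPM, with 10 genes tested in each list. The log2 fold change was above 0 for 7 of the 10 stellate genes (median 0.25) and for all 10 hepatocyte genes (median 0.54). The groups did not overlap for 0 stellate and 2 hepatocyte genes. Limma and edgeR called 0 genes of both lists, with 1 stellate and 3 hepatocyte genes at an unadjusted p under 0.05 in limma, and DESeq2 called 0 stellate genes and 1 hepatocyte gene. That gene was Fgb, a fibrinogen chain, named after its values were seen, at 16.8, 36.7 and 21.0 against 50.7, 69.6 and 43.9 CPM (adjusted p = 0.00571 with DESeq2 and 0.0976 with limma). Lymphocyte markers summed to at most 8.14 CPM on the control diet and to 12.8 to 22.3 CPM on the high-iron diet. Of these 10 genes, 3 were tested, and limma called 1, Ighm, a call lost when any 1 library was left out. All 3 had a log2 fold change above 0 (median 1.27), an unadjusted p under 0.05 in limma and groups that did not overlap. EdgeR called 0 of the 3 and DESeq2 called 1. No gene of these lists was at 0 in every library. The part of these cells and of vessel type in the members' values was not tested, and each member is given below with and without control_iron replicate 1. In bulk samples such as these, fewer cells of a type and less RNA per cell cannot be told apart.

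**Figure D2:**
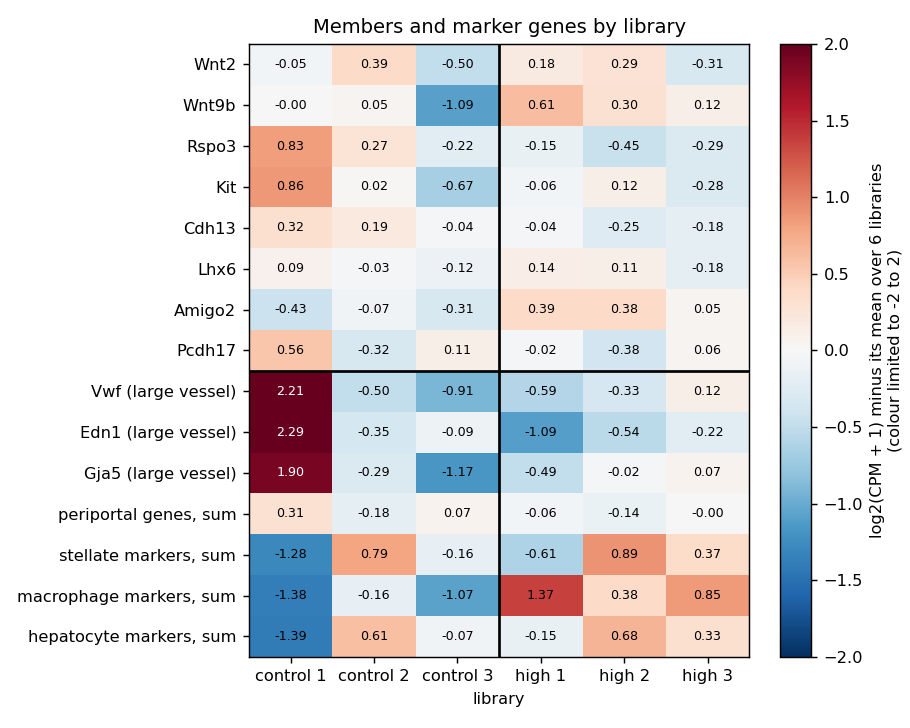
Log2(CPM + 1) of each gene or marker sum (rows) minus its mean over the 6 libraries (columns), with red above and blue below the mean and the value written in each cell. Control_iron replicate 1 is 1.90 to 2.29 above the mean for Vwf, Edn1 and Gja5, and its members range from -0.43 for Amigo2 to 0.86 for Kit.

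The 250 bases before the RefSeq start are shown for Wnt9b and Amigo2, because these were the members whose groups did not overlap. Both are read 5′ to 3′ on the gene's own strand, which is the minus strand, from RefSeq on GRCm38.p6, at chr11:103749822-103750071 for Wnt9b and chr15:97247288-97247537 for Amigo2. Capitals mark CACCC, on either strand, the box bound by KLF factors such as the shear-responsive KLF2 of endothelium.
Wnt9b: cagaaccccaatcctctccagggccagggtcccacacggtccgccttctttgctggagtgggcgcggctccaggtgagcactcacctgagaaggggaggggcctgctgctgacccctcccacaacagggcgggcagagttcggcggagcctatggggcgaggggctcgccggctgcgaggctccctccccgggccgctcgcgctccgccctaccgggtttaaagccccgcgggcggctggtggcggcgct
Amigo2: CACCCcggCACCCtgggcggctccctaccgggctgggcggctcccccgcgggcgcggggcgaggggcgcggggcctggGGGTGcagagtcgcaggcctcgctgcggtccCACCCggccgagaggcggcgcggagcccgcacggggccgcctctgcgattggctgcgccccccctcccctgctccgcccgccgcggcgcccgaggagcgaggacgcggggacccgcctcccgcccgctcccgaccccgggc
The Amigo2 window holds 4 CACCC matches and the Wnt9b window 0, while 52.0% of 32817 RefSeq promoter windows of the same length hold at least 1. Other cores searched on both strands were TGACNNNGC, the antioxidant response element bound by NRF2 (10.2% of windows), and CTTTGA of TCF/LEF factors (13.8%). The GATA core AGATAA (9.99%) and the ETS core CCGGAA (12.0%) were searched as well. None of these 4 cores matched in either window, so that no match overlapped another. The windows have a GC content of 72% for Wnt9b and 84% for Amigo2, beside a median of 52.4% over all windows. A match describes letters in these 250 bases only. Of the 8 members, 6 had a window, and among the others there was 1 CACCC match in Kit and 1 in Wnt2, and 0 in Lhx6 and Pcdh17. The Wnt2 match was not within the 110 bases of its window that lie before the gene's start in GENCODE M21.

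Wnt2 encodes a Wnt ligand of liver endothelium and lies at chr6:17988940-18030585 on the minus strand (GRCm38, GENCODE M21). It was at 467, 633 and 343 CPM in control_iron replicates 1 to 3 and at 548, 592 and 389 CPM in high_iron replicates 1 to 3. The 3 high_iron values lay inside the control_iron range, with replicate 2 the highest and replicate 3 the lowest in each group. Means were 481 ± 146 and 510 ± 107 CPM (SD, n = 3). The log2 fold change was 0.10 (95% interval -0.42 to 0.63, adjusted p = 0.877 with limma), an interval from 0.747 to 1.55 times the control level. Without control_iron replicate 1 it was 0.11.

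Wnt9b, at chr11:103727364-103749821 on the minus strand, encodes the other Wnt ligand that central vein endothelium is known to secrete. It was at 48.8, 50.8 and 22.5 CPM in the control_iron replicates and at 75.4, 60.4 and 53.4 CPM in the high_iron replicates. The lowest high_iron library was just above the highest control_iron library, and control_iron replicate 3 was far below the rest. Means were 40.7 ± 15.8 and 63.0 ± 11.2 CPM (SD, n = 3). This gave a log2 fold change of 0.69 ± 0.29 (SE, 95% interval 0.05 to 1.33), with an unadjusted p of 0.0372 and an adjusted p of 0.379 with limma. The size rested on control_iron replicate 3, without which it was 0.32, and it was 0.86 without control_iron replicate 1. The interval of Wnt9b reached from nearly no change to 2.51-fold higher.

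Rspo3, the R-spondin gene of central vein endothelium, lies at chr10:29452416-29535867 on the minus strand. It was at 179, 121 and 85.8 CPM in the control_iron replicates and at 90.3, 72.9 and 82.0 CPM in the high_iron replicates. Control_iron replicate 3 lay between high_iron replicates 1 and 3, so the groups overlapped, and control_iron replicate 1 was the highest of all. Means were 129 ± 46.9 and 81.7 ± 8.71 CPM (SD, n = 3). On the log2 scale the difference was -0.59 ± 0.23 (SE, 95% interval -1.11 to -0.07), with an unadjusted p of 0.0313 and an adjusted p of 0.363 with limma. It was -0.32 without control_iron replicate 1 and -0.85 without control_iron replicate 3. In the annotation 13.1% of the exonic length of Rspo3 lies under Gm48159 on the opposite strand, and the library kit does not mark strand.

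Since Wnt ligands and R-spondin 3 act together on hepatocytes, their levels were also set against each other within each library, per length. This comparison was chosen after the values were seen and is a description. The RPKM ratio of Wnt9b to Rspo3 was 0.145, 0.222 and 0.139 in the control_iron replicates and 0.441, 0.439 and 0.345 in the high_iron replicates. All 3 high_iron ratios exceeded all control_iron ratios, with means of 0.408 ± 0.0551 against 0.169 ± 0.0466 (SD, n = 3), and scaling between libraries cancels in them. The ratio of Wnt2 to Rspo3 was 2.03, 4.06 and 3.10 against 4.71, 6.30 and 3.68, with overlap between control_iron replicate 2 and high_iron replicate 3. Wnt2 exceeded Wnt9b 14.0, 18.3 and 22.3 times on the control diet and 10.7, 14.4 and 10.7 times on the high-iron diet, and these groups overlapped as well.

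Wnt2 and Wnt9b made up nearly all Wnt transcript of these cells. Of 19 Wnt genes, 4 passed the filter on low values, which asked for 1 CPM or more in 3 or more libraries. By RPKM, Wnt2 gave 90.8% to 94.5% and Wnt9b 4.23% to 8.54% of the summed Wnt level in each library, and the pair gave 98.7% to 99.6%. The share of Wnt9b was 6.63%, 5.14% and 4.23% in the control_iron replicates and 8.54%, 6.47% and 8.49% in the high_iron replicates, so high_iron replicate 2 lay just below control_iron replicate 1. Wnt4 had a mean of 0.631 RPKM and Wnt2b a mean of 0.378 RPKM over the 6 libraries, with log2 fold changes of -0.13 and -0.22 (adjusted p = 0.932 and 0.737 with limma). Wnt6, Wnt7a, Wnt7b, Wnt10a and Wnt11 were at 0 reads in every library, and 12 of the 19 genes, these 5 included, had at most 3 reads in any library. Among the 4 R-spondin genes, Rspo3 alone passed the filter, while Rspo1, Rspo2 and Rspo4 had at most 3 reads in any library. For a count of 0, the limit of 3 reads corresponds to 0.139 to 0.231 CPM and covers counting error only.

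**Figure D3:**
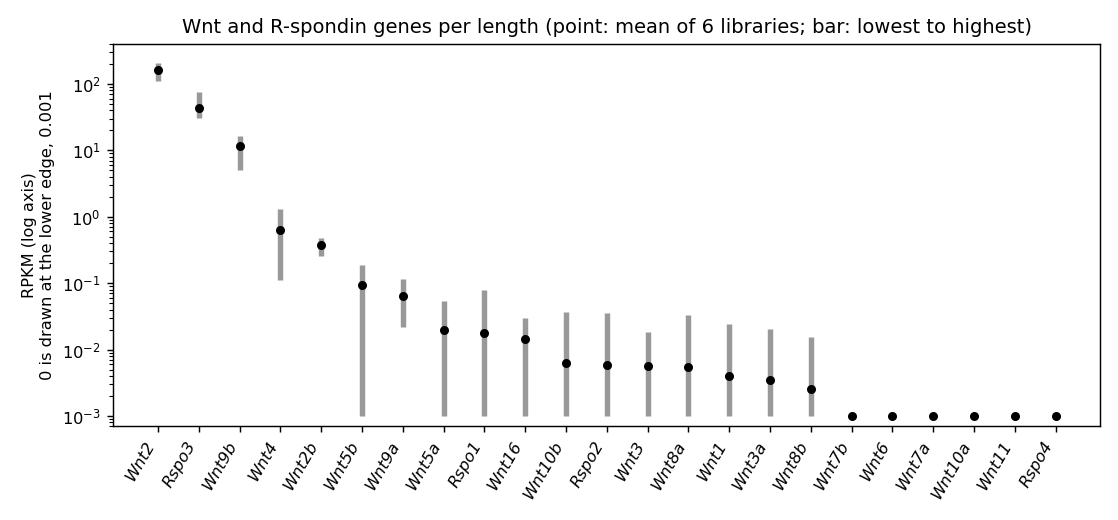
RPKM (log axis) of the 19 Wnt and 4 R-spondin genes, with a point for the mean of the 6 libraries and a bar from the lowest to the highest library. Wnt2 (161 RPKM), Rspo3 (44.0 RPKM) and Wnt9b (11.5 RPKM) stand above Wnt4 at 0.631 RPKM, and genes or libraries at 0 are drawn at the lower edge.

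Genes that handle these ligands were read beside them. Wls, the carrier that every secreted Wnt needs on its way out of the cell, was at 208, 206 and 173 CPM on the control diet and at 254, 227 and 241 CPM on the high-iron diet. Its groups did not overlap, and its log2 fold change of 0.30 had an adjusted p of 0.394 with limma. Porcn, which acylates Wnt proteins, had a log2 fold change of 0.12. Of 18 listed Wnt receptors and co-receptors, 11 were tested and 0 were called at an adjusted p under 0.05 with limma, with 1 at an unadjusted p under 0.05. The most abundant by CPM were Lrp6, a Wnt co-receptor, with a log2 fold change of 0.18, and Tspan12, a partner of Frizzled 4, at 130, 145 and 131 against 183, 182 and 215 CPM. Tspan12 differed by 0.51 (adjusted p = 0.117 with limma and 0.0164 with DESeq2). Of 6 listed R-spondin receptors and partners, 3 were tested and 0 called by limma, edgeR or DESeq2, with 1 at an unadjusted p under 0.05 in limma, Lgr4 at -0.58 (adjusted p = 0.358 with limma). Sdc4 was at -0.14.

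Inside the pathway, 1 of 15 tested transducers was called by limma, and also by edgeR and DESeq2. Tcf7l1, a TCF factor known mainly as a repressor of Wnt targets, was at 207, 189 and 211 CPM in the control_iron replicates and at 115, 123 and 136 CPM in the high_iron replicates. It fell by 0.69 on the log2 scale (95% interval -0.97 to -0.41, adjusted p = 0.0378 with limma), and the call was lost when any 1 library was left out, with an adjusted p of up to 0.171. Of 4 tested secreted or surface Wnt inhibitors and 6 tested Wnt target genes, 0 were called by limma, edgeR or DESeq2, and 1 in each list had an unadjusted p under 0.05 in limma. Among the targets were Nkd1, a feedback inhibitor, at 0.17 and Sox17 at -0.32, and the groups of Sox17 did not overlap. Sox17 was the target at that unadjusted p, and it is counted in the large-vessel and periportal lists as well. The inhibitor at that p was Dkk3, which is also counted among the other pericentral genes. Axin2, the target most often used to read Wnt activity and named after its values were seen, was low, at 1.14, 2.28 and 2.68 against 0.667, 0.825 and 1.38 CPM, and its log2 fold change of -0.61 had an adjusted p of 0.431 with limma.

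Kit is the receptor tyrosine kinase for stem cell factor and lies at chr5:75574916-75656722 on the plus strand. It was at 823, 459 and 285 CPM in the control_iron replicates and at 435, 493 and 371 CPM in the high_iron replicates. The control_iron libraries held both the highest and the lowest value of all 6, and the high_iron libraries lay between them. Means were 522 ± 275 and 433 ± 60.9 CPM (SD, n = 3). The log2 fold change of Kit was -0.14 (95% interval -0.85 to 0.57, adjusted p = 0.875 with limma), and it was 0.25 without control_iron replicate 1 and -0.51 without control_iron replicate 3. Mast cells carry Kit as well, and their protease genes Cpa3, Mcpt4, Tpsb2 and Cma1 were below 1 CPM in every library, with Tpsab1 at 0. Of the 10 mast cell and progenitor markers, 2 passed the filter, Gata2 and Hdc. The list summed to 148, 160 and 122 CPM on the control diet and to 163, 192 and 192 CPM on the high-iron diet, without overlap. Limma, edgeR and DESeq2 called 0 of the 2, and 1 had an unadjusted p under 0.05 in limma. Which cells these transcripts came from was not tested.

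All 11 genes of the Kit pathway list, Kit included, were tested. Limma and edgeR called 0 of them, with 4 at an unadjusted p under 0.05 in limma, and DESeq2 called 1. That gene was Ptpn6, which encodes the phosphatase SHP-1 and was named after its values were seen. Ptpn6 was at 1.66, 4.78 and 1.65 CPM in the control_iron replicates and at 8.52, 8.78 and 7.30 CPM in the high_iron replicates, without overlap. Its log2 fold change of 1.41, the largest of the list, had an adjusted p of 0.0774 with limma, 0.156 with edgeR and 0.0125 with DESeq2. Ptpn6 is also known from blood cells, and the summed macrophage markers were likewise above the control range in all 3 high_iron libraries. Their part in its value was not tested. Sh2b3, an adaptor that restrains Kit signalling and the most abundant after Kit, had a log2 fold change of 0.16. Kitl, which encodes stem cell factor and was named after its values were seen, was at 116, 111 and 116 CPM against 137, 134 and 166 CPM. Its groups did not overlap, and the log2 fold change of 0.34 had an adjusted p of 0.342 with limma.

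Amigo2 encodes a leucine-rich repeat and immunoglobulin domain protein of the cell surface and lies at chr15:97244125-97247287 on the minus strand. It was at 125, 160 and 135 CPM in the control_iron replicates and at 221, 220 and 175 CPM in the high_iron replicates. All high_iron libraries were above all control_iron libraries, and the lowest value was that of control_iron replicate 1. Means were 140 ± 18.3 and 205 ± 26.3 CPM (SD, n = 3). This is a log2 fold change of 0.55 ± 0.15 (SE, 95% interval 0.21 to 0.88), with an unadjusted p of 0.00478 and an adjusted p of 0.157 with limma. The adjusted p was 0.190 with edgeR and 0.0429 with DESeq2. It was 0.47 without control_iron replicate 1, and leaving out any other library gave 0.49 to 0.66. In its family, Amigo1 had a log2 fold change of 0.06 and Amigo3 one of -0.15, neither of them called by limma, edgeR or DESeq2.

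Cdh13 encodes T-cadherin, a cadherin anchored in the membrane by a lipid, which binds adiponectin, and it lies at chr8:118283733-119324921 on the plus strand. It was at 518, 475 and 403 CPM in the control_iron replicates and at 404, 349 and 367 CPM in the high_iron replicates. The groups overlapped through control_iron replicate 3 and high_iron replicate 1, which were almost equal. Means were 466 ± 58.1 and 373 ± 28.1 CPM (SD, n = 3). Between the groups the log2 fold change was -0.31 ± 0.14 (SE), with an unadjusted p of 0.0513 and an adjusted p of 0.414 with limma, and it was -0.23 without control_iron replicate 1. Of the 5 other cadherins and adiponectin receptors tested, Cdh5 had a log2 fold change of -0.20, Cdh4 of 0.06, Cdh2 of 0.53, Adipor1 of 0.24 and Adipor2 of -0.28. Limma, edgeR and DESeq2 called 0 of the list, and 0 had an unadjusted p under 0.05 in limma.

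Pcdh17 encodes a protocadherin, a homophilic adhesion protein best known from neurons, and lies at chr14:84443563-84539002 on the plus strand. It was at 224, 121 and 165 CPM in the control_iron replicates and at 150, 116 and 158 CPM in the high_iron replicates. The groups overlapped widely, and control_iron replicate 1 was the highest library. Means were 170 ± 51.7 and 141 ± 22.1 CPM (SD, n = 3). For Pcdh17 the log2 fold change was -0.23 (95% interval -0.72 to 0.25, adjusted p = 0.684 with limma), and it was -0.01 without control_iron replicate 1. The endothelial protocadherin Pcdh12 had a log2 fold change of 0.03 and Pcdh1 one of 0.41, and neither was called by limma, edgeR or DESeq2.

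Lhx6 is the only transcription factor among the members, a LIM homeobox protein best known from interneurons, and lies at chr2:36081953-36105408 on the minus strand. It was at 64.5, 59.2 and 55.5 CPM in the control_iron replicates and at 66.8, 65.6 and 53.4 CPM in the high_iron replicates. The groups overlapped, and the highest library was 1.25 times the lowest, the narrowest range of the 8 members. Means were 59.7 ± 4.52 and 61.9 ± 7.39 CPM (SD, n = 3). The log2 fold change of Lhx6 was 0.05 (95% interval -0.28 to 0.37, adjusted p = 0.913 with limma), and it was 0.10 without control_iron replicate 1. The other tested member of its family, Lhx2, had a log2 fold change of -0.29 and a mean of 1.37 RPKM.

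**Figure D4:**
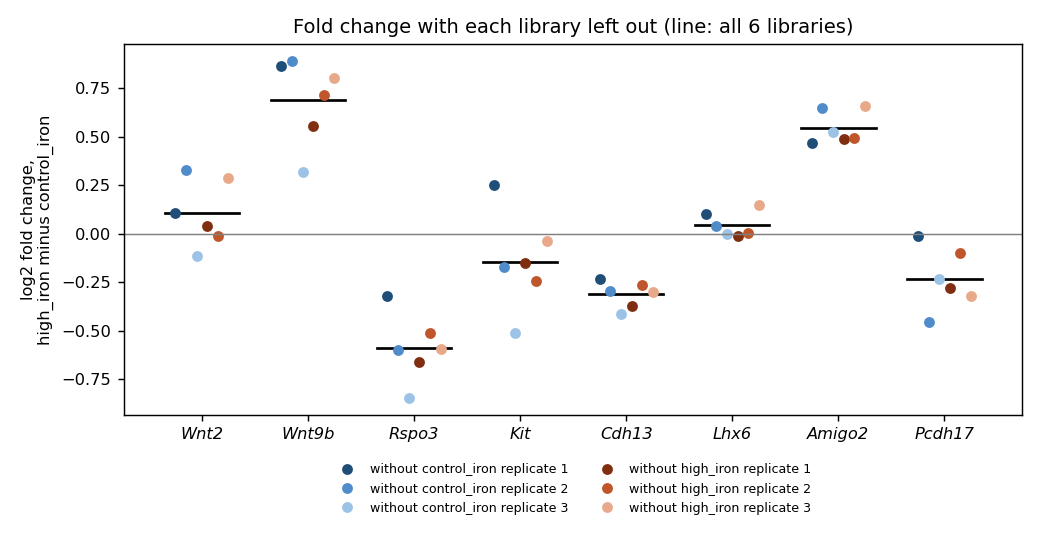
Log2 fold change (high_iron minus control_iron) of each member with all 6 libraries (line) and with each library left out in turn (points, coloured by the library left out). Wnt9b, Rspo3, Cdh13, Amigo2 and Pcdh17 stay on 1 side of 0 in all 6 omissions, whereas Kit moves from -0.51 to 0.25.

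Compared per length, Wnt2 had the highest RPKM of the 8 members in all 6 libraries. It was at 152, 206 and 111 RPKM on the control diet and at 178, 192 and 126 RPKM on the high-iron diet. Kit followed in 5 libraries, and Amigo2 did so in high_iron replicate 1. Mean RPKM over the 6 libraries ran from 161 for Wnt2 through 80.0 for Kit, 60.1 for Amigo2, 44.0 for Rspo3 and 37.2 for Cdh13 to 16.4 for Pcdh17, 11.5 for Wnt9b and 8.72 for Lhx6. Neighbours in that order overlapped in their ranges over the libraries, except that Cdh13, at 31.0 RPKM or more, was above Pcdh17, at 23.6 RPKM or less. Lhx6 was last in 5 libraries and Wnt9b in control_iron replicate 3. These levels and their order depend on the deposited gene lengths. For Kit that length is 5973 bases beside 8911 bases of merged exons in GENCODE M21. It is 9505 beside 12991 bases for Pcdh17, 6974 beside 4805 for Lhx6 and 3078 beside 2255 for Wnt2. The order by merged exon length was not computed.

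Spread within a group was often wider on the control diet. The CV over the control_iron replicates was 52.6% for Kit, 38.8% for Wnt9b and 36.5% for Rspo3, and over the high_iron replicates it was 14.1%, 17.8% and 10.7%. The SD of log2 values was wider in the control_iron group for 6 of 8 members, a share near the 67.9% of all genes tested for which the same held. Control_iron replicate 1 held the highest value of 4 members and control_iron replicate 3 the lowest of 3.

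The genes most alike in pattern were sought among 9490 genes by Pearson's r of log2(CPM + 1) over the 6 libraries, which share their scaling and the diet groups. For Rspo3 these were Jam2 (r = 0.996), which encodes a junctional adhesion molecule of endothelium, and Entpd1 (r = 0.988), which encodes the ectonucleotidase CD39. Jam2 was at 913, 627 and 486 CPM against 498, 389 and 448 CPM. Among the members, Cdh13 was the closest to Rspo3 (r = 0.964), while Wnt9b had an r of -0.01 with it. For Kit they were Asxl1 (r = 0.989) and Casc3 (r = 0.986), for Wnt9b Oxr1 (r = 0.994) and Tomm70a (r = 0.993), and for Wnt2 Lrwd1 (r = 0.974) and the pseudogene Spcs2-ps (r = 0.973). With 6 libraries and so many genes searched, these values are a description.

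Of 6 other genes known from pericentral or central vein endothelium, 1 was called by limma, edgeR and DESeq2. Fabp4, a fatty acid carrier, was at 400, 297 and 336 CPM in the control_iron replicates and at 212, 160 and 176 CPM in the high_iron replicates. It fell by 0.91 on the log2 scale (95% interval -1.26 to -0.56, adjusted p = 0.0344 with limma). The call was lost without control_iron replicate 3 and without each high_iron replicate, with an adjusted p of up to 0.207. Dkk3, a secreted protein of the Dickkopf family, was at 54.0, 90.4 and 41.7 against 82.5, 140 and 94.6 CPM, and its log2 fold change of 0.80 had an adjusted p of 0.295 with limma. The remaining log2 fold changes were -0.14 for Thbd (thrombomodulin), -0.16 for Selp (P-selectin), -0.08 for Ramp3 (a receptor activity modifier) and 0.10 for Ptgs1 (cyclooxygenase 1). The 6 genes had a median of -0.11 with 2 above 0, beside -0.05 with 4 of 8 above 0 for the members.

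**Figure D5:**
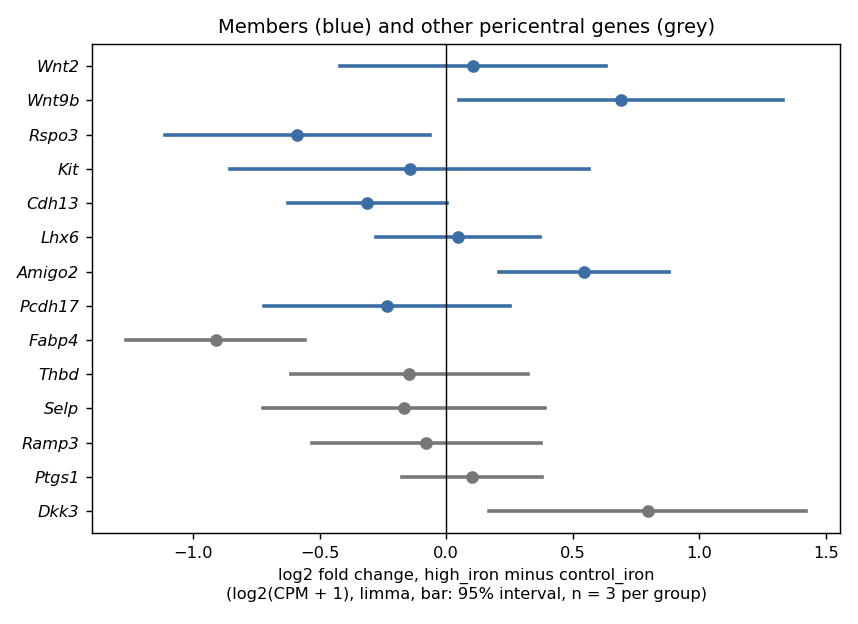
Log2 fold change, high_iron minus control_iron, with its 95% interval from limma (n = 3 per group) for the 8 members (blue) and 6 other pericentral endothelial genes (grey). The intervals of Wnt9b, Amigo2 and Dkk3 lie above 0, and those of Rspo3 and Fabp4 below it, before adjustment over all genes.

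Genes from the opposite end of the sinusoid were set beside the members. Of 14 periportal and arterial-side endothelial genes, all tested, limma and edgeR called 1 and DESeq2 called 2, with 5 at an unadjusted p under 0.05 in limma. A log2 fold change above 0 was found for 4 of them, and the median was -0.26. Clu, which encodes clusterin, rose from 69.9 ± 17.5 to 162 ± 35.0 CPM (SD, n = 3), with an adjusted p of 0.0353 with limma, a call lost without control_iron replicate 3, high_iron replicate 2 or high_iron replicate 3. Ntn4, which encodes netrin 4 and was named after its values were seen, was at 281, 190 and 182 CPM against 114, 112 and 140 CPM. Its groups did not overlap, and its log2 fold change of -0.81 had an adjusted p of 0.0810 with limma, 0.0954 with edgeR and 0.00251 with DESeq2. The 14 genes summed to 2532, 1806 and 2151 CPM in the control_iron replicates and to 1961, 1859 and 2039 CPM in the high_iron replicates, and the highest sum was again that of control_iron replicate 1. That library also held the highest values of Rspo3, Kit, Cdh13 and Pcdh17.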

How the data were processed

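RNA came from sorted liver endothelial cells, 3 libraries per diet, made with a low-input cDNA kit that does not mark strand. STAR, HTSeq, edgeR and mm10 stand in the submitters' processing notes, without roles or versions. The authors deposited a normalized signal named CPM, in which all 114253 values above 0 were whole reads within 0.001 read of a scaled library size. The deposited RPKM values are these CPM per kilobase of the deposited length. Recovered reads in genes numbered 12963510 to 21663543 per library, and 395 to 15840 per member. The test was limma (version 3.58.1, R 4.3.3) with log2(CPM + 1) as response, for genes reaching 1 CPM in 3 or more of 6 libraries. This scale understates the change of low genes. Group was the only term, and the threshold was 0.05. The procedure was tested on simulated data, in which the planted changes were larger than that of any member. How often changes of the members' size are called was not tested. Alternatives were edgeR 4.0.16 and DESeq2 1.42.0 on the recovered reads, other pseudocounts, filters and scalings, a replicate block and leaving out each library. P-values set the difference between the groups against the spread between these samples, which limma moderates by a trend over all genes. The labels give no batch. The members and 28 gene lists (242 genes, 4 matched through the identifier) were chosen with earlier results of these data known. Named were all members, all other pericentral genes, called list genes, otherwise the 2 most abundant, all tested genes of the members' families, and the 2 closest patterns for 4 members. Positions come from GENCODE M21 on GRCm38. No near-identical copy of a member was found at 95% identity over 50% of a transcript.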

Additional observations from a re-analysis of the deposited data

How the results depend on the processing

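The number of members called was 0 in each of 15 alternatives except DESeq2, where it was 1 (Amigo2). Of 120 refitted member fold changes, 114 kept their direction and side of the threshold, 1 passed it (Amigo2 with DESeq2) and 5 changed sign. All 5 came from leaving out 1 library, with ranges of -0.12 to 0.33 for Wnt2, -0.51 to 0.25 for Kit and -0.0098 to 0.15 for Lhx6. Over all genes, 133 were called, 34 without a filter on low values, 424 with DESeq2 and 402 with the replicate block, and from 26 to 173 when each library was left out. The cause of these differences was not tested. DESeq2 held all 133 limma calls and edgeR 115. Replicate numbers are shared between groups, but the labels do not say that they mark pairs, so the main fit has no block. Same-numbered libraries deviated together with r = 0.128, 0.320 and 0.063. Libraries of unlike number had r from -0.388 to 0.198, the latter for control_iron replicate 3 with high_iron replicate 1. These values do not settle whether the numbers are pairs. With the block limma called 0 members, at an adjusted p of 0.0709 for Wnt9b, 0.104 for Amigo2 and 0.114 for Rspo3. Some genes named above as not called by limma passed with the block, among them Dkk3 (adjusted p = 0.0154), Ntn4 (0.0176) and Ptpn6 (0.00435). Others did not, among them Tspan12 (0.133), Kitl (0.369) and Wls (0.442). Each member had at least 395 reads in every library, and the lowest mean CPM of a member lay at percentile 69.9 of all genes tested. With 3 libraries per group, intervals as wide as those of Kit and Wnt9b remained.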

Other observations

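Transcripts known from hepatocytes of both lobule ends were counted in the sorted cells. Of 9 tested pericentral hepatocyte genes, 0 were called with limma, edgeR or DESeq2, 1 had an unadjusted p under 0.05 and 4 had a log2 fold change above 0, with a median of -0.04. Glul, which encodes glutamine synthetase, was at 74.8, 92.8 and 125 CPM in the control_iron replicates and at 66.0, 59.2 and 69.7 CPM in the high_iron replicates. Its groups did not overlap, and the log2 fold change of -0.55 had an adjusted p of 0.268 with limma. Oat, ornithine aminotransferase, had a log2 fold change of 0.02. Cyp2e1, named after its values were seen, went the other way from Glul, at 27.6, 111 and 27.0 against 53.6, 135 and 87.4 CPM. Its groups overlapped, and its log2 fold change of 0.96 had an adjusted p of 0.475 with limma and 0.0145 with the replicate block. All 10 periportal hepatocyte genes were above 0, with a median of 0.51 and 0 called with limma, edgeR or DESeq2, none of them at an unadjusted p under 0.05. Their sum was 126, 509 and 282 CPM on the control diet and 294, 483 and 414 CPM on the high-iron diet, and control_iron replicate 1 was the lowest, as it was for the hepatocyte markers. The part of hepatocyte RNA in these values was not tested.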
